A study of Mus musculus with 8 samples.

Results

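The genes described here encode collagens, laminins and other proteins of the extracellular matrix in pancreatic islets, the clusters of hormone-secreting cells of the pancreas. They were chosen by symbol: every gene of the table whose symbol begins as a collagen chain or a laminin chain does, together with Nid1, Nid2, Fbn1, Fbn2, Fn1, Hspg2, Agrn, Lum, Dcn and Mgp. This gave 55 of the 14126 genes in the table. A total of 54 of them are matrix genes, and the remaining 1, Col4a3bp, matches the symbol pattern but encodes a ceramide transfer protein and no collagen. The pattern fits 65 protein-coding genes of the mouse annotation, and those without a row in the table were not analysed here. All 55 passed the filter on low values (1 or more in at least 4 of the 8 libraries).

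Bulk RNA sequencing had been run on islets of 7-week-old mice of the strain NOD/ShiLtJ, which is prone to autoimmune diabetes, with 4 mice and 4 libraries per genotype. The KO group carries the genotype label IRE1αβ-/-, where β stands for the beta cell by the usual notation of the field, and the WT group carries the label IRE1α fl/fl, a floxed allele. IRE1α, encoded by Ern1, is a sensor of stress in the endoplasmic reticulum, where collagens and laminins are folded before export. Tamoxifen at 10 mg/ml, given on 5 days to switch on Cre recombinase, is recorded for KO and WT mice alike, and no label names a promoter that drives Cre. The labels do not say whether the WT mice carry Cre, so if they do not, loss of IRE1α and the presence of active Cre cannot be told apart. The islets were freed by digestion with collagenase and protease and picked by hand.

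The values are normalized read counts, deposited as whole numbers after rounding; they are compared between libraries for the same gene, and between genes only per kilobase of exon. A gene was called higher or lower where the adjusted p-value of limma's moderated test on log2(value + 1), adjusted over all 14121 genes tested, was under 0.05. Ern1 itself had values of 7223, 7390, 6922 and 7216 in KO islets, against 5549, 5164, 4622 and 4500 in WT islets. This whole-gene value does not show whether the floxed exons were lost, so it does not check the labels. Xbp1, the transcript that IRE1α splices, had values of 7104, 7858, 10170 and 10957 in KO islets, against 10805, 10026, 12356 and 10795 in WT islets, and was not called (log2 difference -0.30 ± 0.14, SE, adjusted p = 0.168). Libraries numbered 1 and 2 stood apart from libraries numbered 3 and 4 under both labels, and the labels record no batch; results are therefore also given with the replicate number as a block and within each set of numbers.

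The extracellular matrix of an islet has 2 compartments. Basement membranes are thin sheets of laminin and collagen IV networks, linked by nidogens and heparan sulphate proteoglycans; in mouse islets they surround the capillaries, whose endothelial cells are a main source of them, and wrap the islet edge. The interstitial matrix holds fibrils of collagens I, III and V, decorated by fibril-associated collagens and small proteoglycans and made mostly by fibroblasts, stellate cells and pericytes. Collagen chains are hydroxylated and glycosylated in the endoplasmic reticulum, trimmed after export and crosslinked by lysyl oxidases.

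Collagen IV genes are arranged in pairs that run away from each other. Col4a5 and Col4a6 rose in KO islets, in calls that single libraries can end, and Col4a1, Col4a2, Col4a3 and Col4a4 were not called. In the GENCODE M21 annotation of GRCm38, Col4a5 (chrX:141475385-141689234, plus strand) and Col4a6 (chrX:141165403-141474076, minus strand) lie 1308 bases apart. Col4a1 (chr8:11198423-11312826, minus strand) and Col4a2 (chr8:11312805-11449287, plus strand) overlap by 22 bases at their starts. The windows of 300 bases around the 4 start sites are shown because this start-to-start arrangement is what the members of each pair share; they are RefSeq's (GRCm38.p6), read in the direction of each gene, with CCAAT and GGGCGG, or their reverse complements ATTGG and CCGCCC, in capitals. The windows lie at chrX:141475169-141475468, chrX:141474027-141474326, chr8:11312777-11313076 and chr8:11312555-11312854.
Col4a5: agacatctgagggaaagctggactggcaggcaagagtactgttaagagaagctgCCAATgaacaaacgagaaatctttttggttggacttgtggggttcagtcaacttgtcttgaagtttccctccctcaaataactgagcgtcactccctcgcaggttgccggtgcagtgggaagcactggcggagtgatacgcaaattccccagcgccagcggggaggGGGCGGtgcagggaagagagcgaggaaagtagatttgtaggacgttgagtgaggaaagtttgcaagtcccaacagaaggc
Col4a6: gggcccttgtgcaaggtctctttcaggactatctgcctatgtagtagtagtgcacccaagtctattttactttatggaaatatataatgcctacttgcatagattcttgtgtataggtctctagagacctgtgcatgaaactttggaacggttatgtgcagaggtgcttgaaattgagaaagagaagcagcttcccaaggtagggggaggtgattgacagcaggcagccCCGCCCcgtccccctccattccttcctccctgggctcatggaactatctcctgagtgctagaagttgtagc
Col4a1: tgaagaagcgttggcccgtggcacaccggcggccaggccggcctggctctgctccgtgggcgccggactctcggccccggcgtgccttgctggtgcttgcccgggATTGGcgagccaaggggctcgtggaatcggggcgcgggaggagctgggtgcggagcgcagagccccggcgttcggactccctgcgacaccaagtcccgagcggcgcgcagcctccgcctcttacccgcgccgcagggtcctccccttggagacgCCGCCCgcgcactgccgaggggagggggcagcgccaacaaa
Col4a2: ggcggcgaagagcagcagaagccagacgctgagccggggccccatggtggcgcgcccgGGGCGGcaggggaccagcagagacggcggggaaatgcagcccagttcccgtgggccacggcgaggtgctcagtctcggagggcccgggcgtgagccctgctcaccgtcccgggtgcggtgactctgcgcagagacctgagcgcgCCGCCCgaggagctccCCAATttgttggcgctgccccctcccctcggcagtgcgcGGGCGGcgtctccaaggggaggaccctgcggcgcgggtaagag

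The Col4a1 and Col4a2 windows share 78 bases, and the GGGCGG at +10 of Col4a1 is the same genomic site as the one at +8 of Col4a2. The X-linked windows held 52.7% (Col4a5) and 48.3% (Col4a6) G and C, against 74% (Col4a1) and 73.7% (Col4a2) on chromosome 8. Searched on both strands, GGGCGG stood in a window of 27 of the 37 member genes that have one, and in 35.63% of the 32817 windows of the table. CCAAT stood in 11 of the 37 (37.39% of all windows) and TATAAA in 3 (13.62%). Of the elements known from the unfolded protein response, TGACGTGG (0.6765% of windows) and the ER stress response element (0.1188%; it begins with a CCAAT, which is counted there too) were in none of the 37. These are letter matches in short windows, and several genes have more than 1 window. A member gene was counted where any of its windows held the match, whereas the shares are per window. The counts and the shares are therefore not directly comparable, and enrichment was not tested.

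Across all 55 genes, 15 rose in KO islets (27.27%), against 11.1% of all genes tested, and 1 fell, Col4a3bp, against 9.81% of all genes tested. The 15 were Col4a5, Col4a6, Lama2, Lama3, Lama5, Col18a1, Col9a2, Col12a1, Col14a1, Col16a1, Col6a5, Col8a1, Fbn1, Lum and Mgp. The median log2 difference was 0.94 over the 55 genes and -0.0008 over all genes tested, with 47 positive and 8 negative differences. The fit called 1562 genes of the table higher and 1385 lower, and totals without hormone and mitochondrially encoded genes moved this split to 1746 and 1017. In 14 genes all 4 KO values lay above all 4 WT values (13.6% of all rows of the table did), and in 1 all lay below (12.3%). With the replicate number as a block, 23 rose (14.2% of all genes) and 1 fell (11.7%). This block gained Col1a1, Col1a2, Col3a1, Col5a1, Col5a3, Col6a2, Col23a1, Col27a1 and Dcn and lost Lama5. The count of 15 fell to 7 without WT replicate 1, to 9 without KO replicate 1 and to 9 without WT replicate 3; 7 calls held whichever library was left out, those of Lama2, Col18a1, Col9a2, Col12a1, Col6a5, Col8a1 and Mgp. In bulk islets, a change in the share of cells of a type and a change in RNA per cell cannot be told apart.

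**Figure D1:**
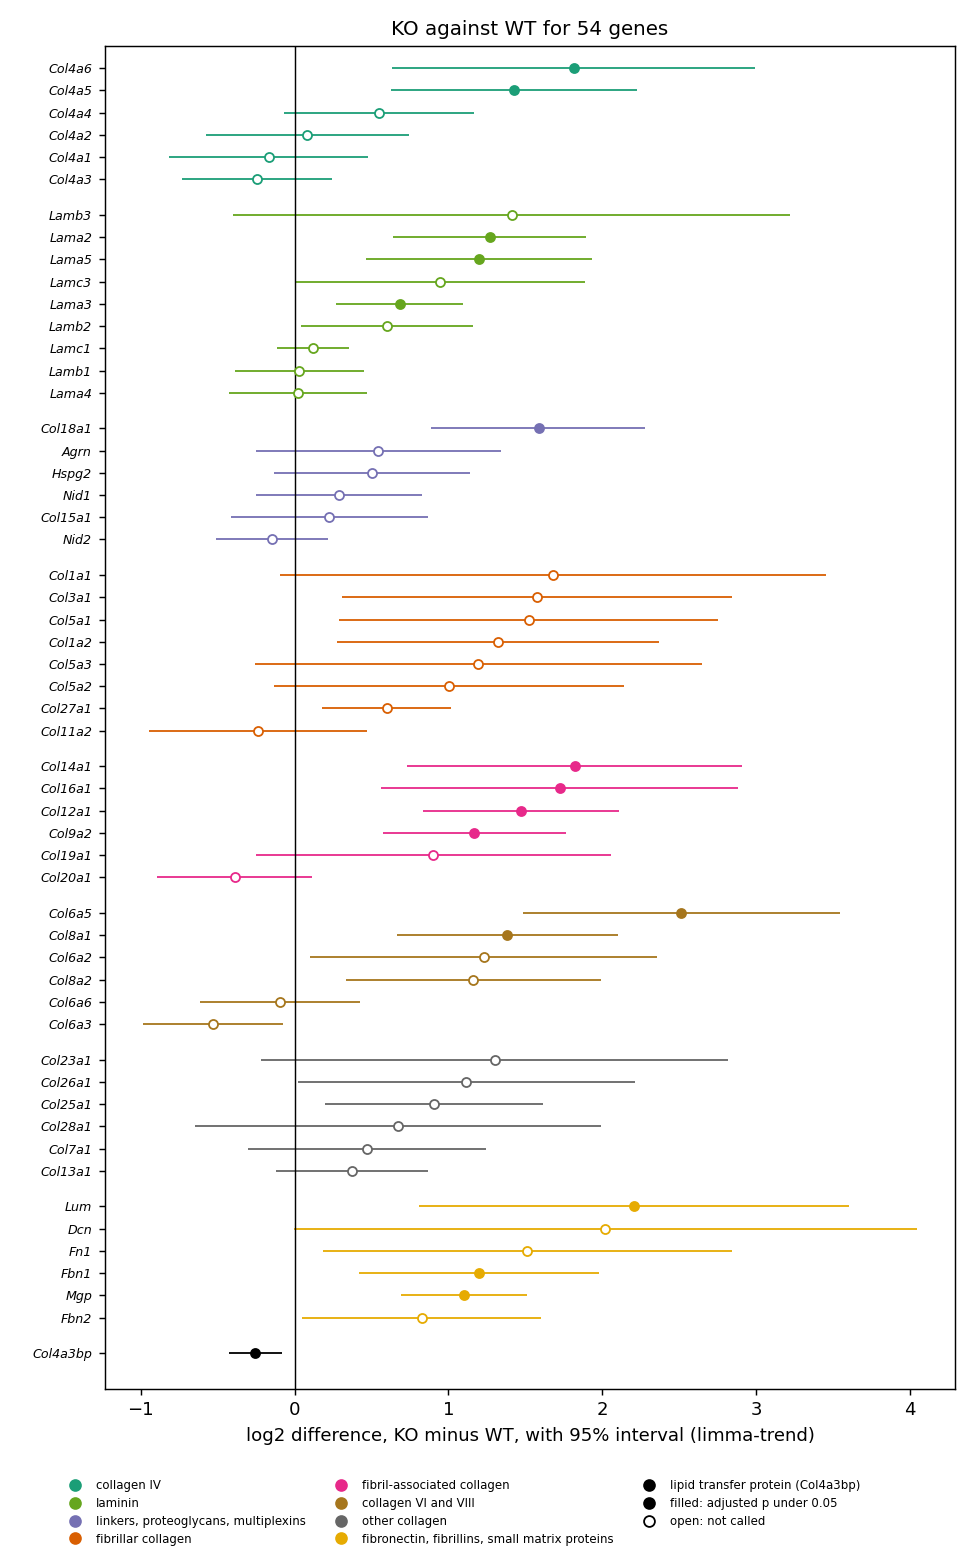
Log2 difference of KO minus WT for 54 of the 55 genes (x axis, with its 95% interval from limma-trend, 4 libraries per group), ordered by role; filled points passed an adjusted p of 0.05. The 15 genes that rose are spread over 6 of the 8 matrix roles, Col4a5 and Col4a6 are the filled collagen IV genes, and no fibrillar collagen is filled although 7 of 8 lie right of 0.

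Basement membrane genes, 22 in all, included 6 that rose and 16 that were not called, with a median log2 difference of 0.52. The collagen IV network is built from trimers of 6 possible chains. Col4a1, with Col4a2 the chains of nearly every basement membrane, had values of 9147, 6314, 13443 and 12815 in KO islets, against 7330, 11789, 11363 and 16197 in WT islets. Col4a2 had values of 3684, 2638, 5064 and 5357 in KO islets, against 2394, 4056, 3757 and 5758 in WT islets. Both genes overlapped between the groups, with log2 differences of -0.17 for Col4a1 (95% interval -0.82 to 0.48, adjusted p = 0.725) and 0.08 for Col4a2 (-0.58 to 0.74, adjusted p = 0.874). The sign of each difference turned with the library left out, from -0.37 to 0.05 for Col4a1 and from -0.14 to 0.29 for Col4a2. Per kilobase of exon Col4a1 was the most abundant of the 55 genes in both groups, at 1397 ± 447 in KO islets and 1563 ± 486 in WT islets (SD, n = 4 each).

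Col4a5, a chain of specialised basement membranes such as those of kidney and smooth muscle, had values of 428, 204, 147 and 135 in KO islets, against 61, 80, 66 and 100 in WT islets. Col4a6, the partner chain of Col4a5 in smooth muscle and epithelial basement membranes, had values of 97, 55, 21 and 25 in KO islets, against 10, 16, 9 and 10 in WT islets. All 4 KO libraries exceeded all WT libraries for both genes, and KO replicates 1 and 2 were the highest. Col4a5 rose by 1.43 ± 0.35 on the log2 scale (SE, adjusted p = 0.0212) and Col4a6 by 1.81 ± 0.52 (adjusted p = 0.0382). The call of Col4a5 was lost without WT replicate 1 or 3 (highest adjusted p = 0.0549), and that of Col4a6 without KO replicate 1 or 2 or any 1 WT replicate (highest adjusted p = 0.0921). Per kilobase of exon, Col4a5 stood at 34.01 ± 20.3 in KO islets and 11.4 ± 2.6 in WT islets, far under Col4a1. Col4a3 and Col4a4, the chains of the glomerular basement membrane, lie 71 bases apart on chromosome 1. Neither was called: Col4a3 averaged 138 ± 33.5 in KO islets and 162 ± 30.03 in WT islets, and Col4a4 averaged 73.5 ± 25.1 in KO islets and 48.8 ± 9.98 in WT islets (SD, n = 4 each).

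Laminins are trimers of an alpha, a beta and a gamma chain. All 10 laminin genes had a positive difference, and 3 rose, each encoding an alpha chain. Lama2, the alpha chain of muscle and Schwann cell basement membranes, had values of 417, 254, 602 and 652 in KO islets, against 168, 214, 163 and 209 in WT islets, and rose by 1.27 ± 0.28 (log2, SE, adjusted p = 0.013). Lama5, the alpha chain of mature vascular and many epithelial basement membranes, had values of 1492, 803, 646 and 599 in KO islets, against 215, 425, 389 and 469 in WT islets, and rose by 1.197 ± 0.33 (adjusted p = 0.0308). The Lama5 call was lost under the block (adjusted p = 0.0556) and without KO replicate 1 or 2 or WT replicate 1, 2 or 3 (over 19 alternatives, the authors' FDR among them, its adjusted p ran from 0.00019 to 0.0631). Lama3, an alpha chain of epithelial basement membranes, had values of 1066, 577, 656 and 707 in KO islets, against 455, 537, 416 and 422 in WT islets. It rose by 0.68 ± 0.18 (log2, SE, adjusted p = 0.0294), and the call was lost without KO replicate 4 or WT replicate 1, 3 or 4 (highest adjusted p = 0.0708). For all 3 genes the groups did not overlap. KO replicate 1 was the highest library for Lama3 and Lama5, and KO replicates 3 and 4 were the highest for Lama2.

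The alpha chain long associated with endothelial basement membranes, Lama4, had values of 1244, 674, 970 and 1078 in KO islets, against 913, 1205, 767 and 971 in WT islets (log2 difference 0.02, 95% interval -0.42 to 0.47, adjusted p = 0.95). Lamb1, the common beta chain, averaged 980 ± 211 in KO islets and 952 ± 177 in WT islets (SD, n = 4 each), with a log2 difference of 0.03 (-0.39 to 0.45). Lamc1, the gamma chain of most laminins, averaged 2340 ± 219 in KO islets and 2152 ± 239 in WT islets, with a log2 difference of 0.12 (-0.11 to 0.36). The groups overlapped for all 3 genes, and the upper bounds lie under the estimates for Lama2, Lama3 and Lama5. The interval of Lama3 (0.27 to 1.10) nevertheless overlaps all 3 intervals, and that of Lama5 (0.46 to 1.93) overlaps the interval of Lama4. These intervals are no test of a difference between chains. The signs for Lama4 (-0.10 to 0.20) and Lamb1 (-0.06 to 0.20) turned with the library left out. Lamb2, a beta chain of vessel and neuromuscular basement membranes, had values of 611, 503, 570 and 596 in KO islets, against 218, 402, 403 and 559 in WT islets, and was not called (log2 difference 0.60, adjusted p = 0.119).

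The other laminin genes were not called either. Lamb3 encodes a partner of the Lama3 chain in epithelial anchoring structures. Lamb3 had a value of 266 in KO replicate 1 and 11 to 47 in the other KO libraries, against 14 to 20 in WT islets. For Lamb3, KO replicate 1 stood alone, and the other KO libraries overlapped the WT range. Lamc3 averaged 64.8 ± 12.4 in KO islets and 36.8 ± 17.2 in WT islets (SD, n = 4 each).

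Nidogens, perlecan (Hspg2) and agrin (Agrn) tie the laminin and collagen IV networks together, and collagens XV and XVIII (Col15a1 and Col18a1) anchor basement membranes to the tissue beneath. Only Col18a1 of these 6 genes rose. Its values were 1236, 738, 731 and 609 in KO islets, against 168, 227, 295 and 441 in WT islets, with no overlap and a log2 difference of 1.59 ± 0.31 (SE, adjusted p = 0.00744). Nid1 had values of 1508, 1164, 2285 and 2535 in KO islets, against 1223, 1744, 1382 and 1554 in WT islets (log2 difference 0.29, 95% interval -0.25 to 0.83). KO replicates 3 and 4 were its highest libraries: libraries 1 and 2 gave a difference of -0.14 and libraries 3 and 4 gave 0.72, which was called. Nid2 averaged 575 ± 108 in KO islets and 634 ± 98.5 in WT islets (SD, n = 4 each; log2 difference -0.15, -0.51 to 0.21). Hspg2 had values of 2040, 1465, 2724 and 2952 in KO islets, against 943, 1704, 1796 and 2072 in WT islets (log2 difference 0.50, -0.14 to 1.14, adjusted p = 0.245). Agrn had a value of 1950 in KO replicate 1 and 584 to 707 in the other KO libraries, against 515 to 660 in WT islets (log2 difference 0.54, adjusted p = 0.311). Col15a1 averaged 1687 ± 586 in KO islets and 1424 ± 405 in WT islets. Exons of Nid2 share 8.45% of their length with Rtraf on the opposite strand, and the strandedness of the counting is not given in the sources used here.

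**Figure D2:**
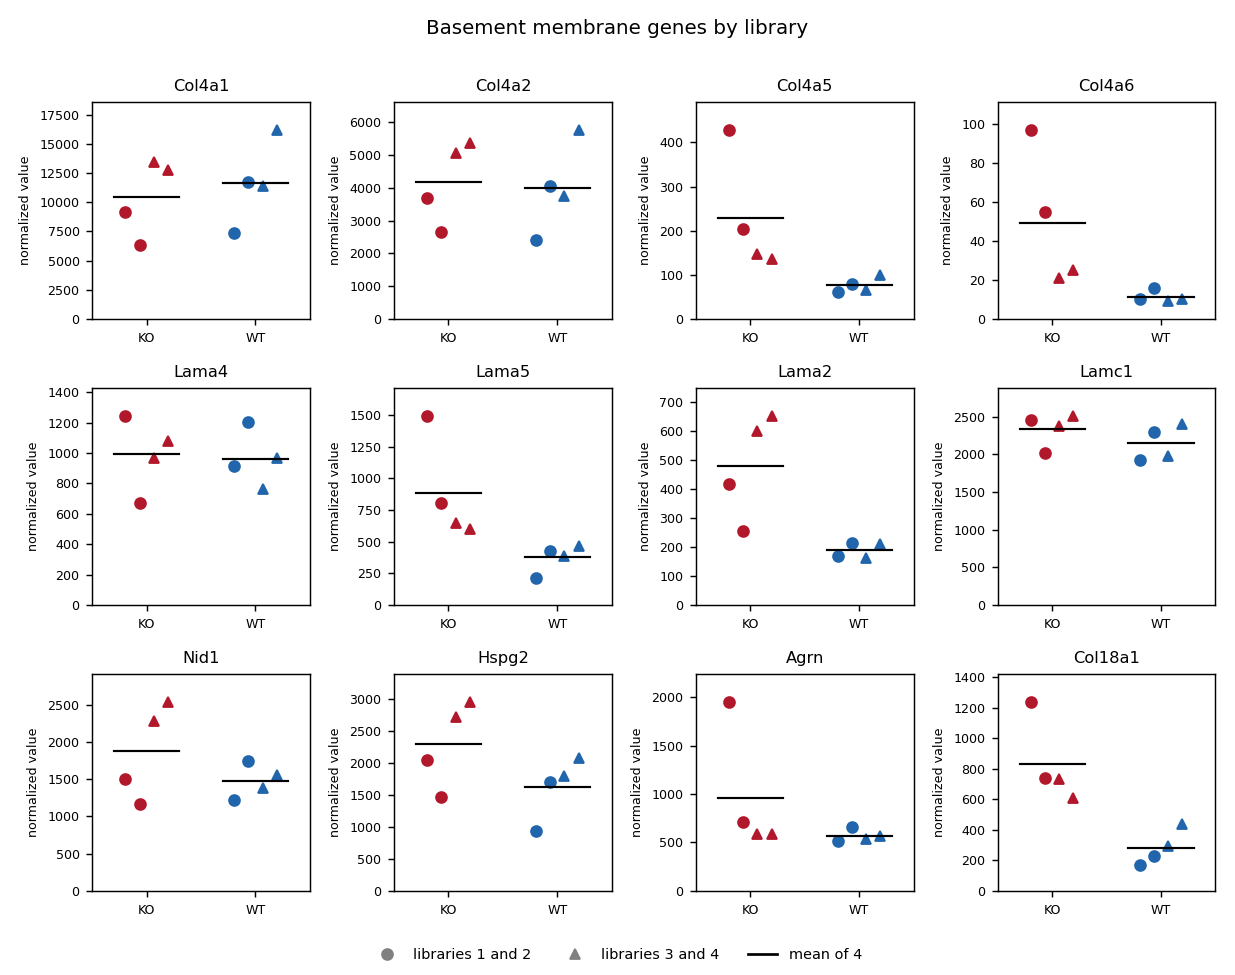
Normalized values (y axis, from 0) of 12 basement membrane genes in each KO and WT library; circles are libraries 1 and 2, triangles libraries 3 and 4, and lines the means of 4. The groups are separate for Col4a5, Col4a6, Lama2, Lama5 and Col18a1 and overlap for Col4a1, Col4a2, Lama4, Lamc1, Nid1, Hspg2 and Agrn, where KO replicate 1 alone is high for Agrn.

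Because chains of 1 network assemble together, 9 ratios of partner or alternative chains, per kilobase of exon, were computed within each library; they were chosen after the values had been seen. The ratio of Col4a2 to Col4a1 was 0.454, 0.471, 0.425 and 0.471 in KO islets, against 0.368, 0.388, 0.373 and 0.401 in WT islets. This ratio varied far less between libraries than either gene did. The ratio of Lama5 to Lama4 was 1.27, 1.26, 0.706 and 0.589 in KO islets, against 0.25, 0.374, 0.537 and 0.512 in WT islets. The ratio of Col18a1 to Col15a1 was 0.923, 0.58, 0.307 and 0.247 in KO islets, against 0.168, 0.143, 0.182 and 0.21 in WT islets. These ratios were higher in all 4 KO libraries than in any WT library, as were Col4a5 to Col4a1 and Col6a5 to Col6a6. Each of the 5 gave a two-sided exact permutation p of 0.0286, the smallest that 4 against 4 libraries allow, and 0.0514 after adjustment over the 9 ratios, which does not pass 0.05. The other 4 ratios overlapped between the groups (exact permutation p from 0.171 to 0.629). Between libraries of the same number, Col3a1 to Col1a2 and Col4a6 to Col4a5 were nevertheless higher in KO islets in 4 of 4 pairs, and Col1a1 to Col1a2 and Lamb2 to Lamb1 in 3 of 4. The 5 ratios above were also higher in 4 of 4 pairs. A two-sided exact permutation within 4 pairs cannot go below p = 0.125, the value of all 7 ratios with 4 of 4 pairs.

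The interstitial and other matrix genes, 32 in all, included 9 that rose and 23 that were not called, with a median log2 difference of 1.18; under the block 18 rose. Fibrillar collagens form the fibrils of connective tissue. None of 8 was called without the block and 6 rose with it. Col3a1 had values of 3704, 2915, 8458 and 8273 in KO islets, against 673, 1439, 2358 and 4197 in WT islets. Col1a1 had values of 469, 449, 1226 and 1200 in KO islets, against 41, 252, 424 and 656 in WT islets. Col1a2 had values of 1433, 1177, 2692 and 2616 in KO islets, against 306, 673, 1076 and 1372 in WT islets. Within each replicate number the KO library exceeded the WT library for all 3 genes, while KO replicates 1 and 2 lay under WT replicate 4 for Col3a1 and Col1a1.

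For Col3a1 the log2 difference was 1.57 ± 0.56 (SE, adjusted p = 0.0779; 0.00621 under the block). Those of Col1a1 and Col1a2 were 1.68 ± 0.79 (adjusted p = 0.165; 0.0297 under the block) and 1.32 ± 0.46 (adjusted p = 0.0746; 0.00828 under the block). Over the 19 alternatives the adjusted p of Col1a1 ran from 0.00039 to 0.31, and the highest value was 0.178 for Col3a1 and 0.17 for Col1a2. Col5a1 and Col5a3, chains of the collagen V that nucleates fibrils, and Col27a1, a chain of cartilage and developing tissues, were the other 3 called under the block. Col27a1 averaged 2354 ± 310 in KO islets and 1589 ± 421 in WT islets (SD, n = 4 each) and missed the threshold narrowly without it (adjusted p = 0.0502; 0.0397 under the block). Col11a2 had values of 209, 221, 272 and 193 in KO islets, against 155, 192, 410 and 385 in WT islets. Libraries 1 and 2 gave a difference of 0.32 and libraries 3 and 4 gave -0.79, which was called lower. The summed marker genes of stellate cells and pericytes, a main source of fibrillar collagen, were 13411, 18481, 17324 and 18861 in KO islets, against 10218, 17033, 9518 and 11536 in WT islets; their part in these differences was not tested.

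Fibril-associated collagens sit on the surface of fibrils, and 4 of 6 rose. Col12a1 had values of 223, 136, 176 and 182 in KO islets, against 49, 102, 44 and 72 in WT islets. Col9a2, known best from cartilage, had values of 235, 224, 158 and 183 in KO islets, against 57, 74, 108 and 127 in WT islets. Neither gene overlapped between the groups, with log2 differences of 1.47 ± 0.28 for Col12a1 (SE, adjusted p = 0.00697) and 1.17 ± 0.26 for Col9a2 (adjusted p = 0.0143). Col14a1 had values of 828, 423, 1161 and 1119 in KO islets, against 112, 167, 302 and 512 in WT islets (log2 difference 1.82 ± 0.48, adjusted p = 0.0279). Col16a1 had values of 491, 125, 297 and 243 in KO islets, against 38, 53, 122 and 146 in WT islets (log2 difference 1.72 ± 0.51, adjusted p = 0.0431). KO replicate 2 was the lowest KO library for Col12a1, Col14a1 and Col16a1 and fell within the WT range for Col14a1 and Col16a1. The calls of Col14a1 and Col16a1 were lost without KO replicate 1, 3 or 4 or WT replicate 1 or 2 (highest adjusted p = 0.075 and 0.106). Col19a1 and Col20a1 were not called; Col20a1 averaged 220 ± 53.4 in KO islets and 291 ± 79.7 in WT islets (SD, n = 4 each).

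Collagen VI forms beaded filaments around cells, and collagen VIII forms a network beneath endothelium and smooth muscle. Col6a5 had the largest log2 difference of the 55 genes. Its values were 165, 79, 209 and 200 in KO islets, against 13, 19, 43 and 42 in WT islets, a log2 difference of 2.51 ± 0.46 (SE, adjusted p = 0.00549). Its neighbour on chromosome 9, Col6a6, which lies 27917 bases away on the same strand and can take the same place in a collagen VI trimer, had values of 72, 60, 98 and 107 in KO islets, against 107, 81, 93 and 73 in WT islets. Col6a5 was separate between the groups and Col6a6 was not (log2 difference -0.09, 95% interval -0.61 to 0.43; -0.22 to 0.06 with 1 library left out). Col6a2 averaged 522 ± 200 in KO islets and 250 ± 156 in WT islets (SD, n = 4 each) and was called under the block alone of these 2 fits (adjusted p = 0.0278, against 0.115 without it; highest over the 19 alternatives 0.241). Col6a3, the large chain of the common collagen VI trimer, had values of 544, 700, 936 and 960 in KO islets, against 1271, 1303, 896 and 1001 in WT islets. Its log2 difference was -0.53 (-0.98 to -0.08, adjusted p = 0.0942), made up of -1.06 in libraries 1 and 2, where it was called lower, and 0.001 in libraries 3 and 4. Col8a1 had values of 243, 229, 419 and 378 in KO islets, against 65, 116, 164 and 151 in WT islets, and rose by 1.38 ± 0.32 (log2, SE, adjusted p = 0.0157). Col8a2, its partner chain, averaged 46.5 ± 16.03 in KO islets and 20.3 ± 6.75 in WT islets, did not overlap between the groups and was not called (adjusted p = 0.0523).

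The 6 collagen genes of other kinds, among them the anchoring fibril collagen Col7a1 and the membrane-spanning Col13a1, Col23a1 and Col25a1, had positive differences of 0.37 to 1.30, and none was called. Col25a1 had values of 83, 204, 82 and 83 in KO islets, against 58, 49, 49 and 65 in WT islets, with no overlap. Col28a1, known from peripheral nerve, had values of 62, 95, 262 and 243 in KO islets, against 57, 42, 149 and 161 in WT islets. For Col28a1 the libraries split by number first and by genotype within each number.

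Among fibronectin, the fibrillins and the small matrix proteins, Lum, Mgp and Fbn1 rose. Dcn and Lum, neighbouring genes 46984 bases apart on chromosome 10, encode decorin and lumican, small proteoglycans that bind fibrils. Lum had values of 218, 184, 596 and 516 in KO islets, against 30, 43, 96 and 207 in WT islets (log2 difference 2.21 ± 0.62, SE, adjusted p = 0.0345). Dcn had values of 376, 255, 1463 and 1255 in KO islets, against 37, 83, 431 and 475 in WT islets (log2 difference 2.02 ± 0.90, adjusted p = 0.144; 0.00574 under the block). In both genes each KO library exceeded its WT library of the same number, and in WT islets replicates 3 and 4 lay above replicates 1 and 2. The Lum call was lost without KO replicate 1, 3 or 4 or WT replicate 1, 2 or 3 (highest adjusted p = 0.0899). For Dcn the adjusted p reached 0.295 over the 19 alternatives.

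Mgp encodes matrix Gla protein, an inhibitor of calcification made by vascular and stromal cells, and was the second most abundant of the 55 genes per kilobase of exon in KO islets and the third in WT islets. Its values were 965, 963, 1543 and 1323 in KO islets, against 433, 546, 627 and 605 in WT islets. With no overlap, its log2 difference of 1.10 ± 0.18 (SE) had the smallest adjusted p of the 55 genes, 0.00345. Fbn1, the main component of microfibrils, had values of 437, 335, 745 and 785 in KO islets, against 139, 339, 218 and 299 in WT islets, and rose by 1.197 ± 0.35 (log2, SE, adjusted p = 0.0386). The groups overlapped by KO replicate 2 and WT replicate 2, and the call was lost without KO replicate 1, 3 or 4 or WT replicate 1 or 3 (highest adjusted p = 0.099). Fbn1 exons share 20.1% of their length with Gm9913 on the opposite strand. Fn1, a ligand of many integrins, had values of 861, 302, 335 and 314 in KO islets, against 54, 436, 122 and 141 in WT islets, and was not called (log2 difference 1.51 ± 0.59, adjusted p = 0.101). KO replicate 1 and WT replicate 2 stood high for Fn1, and without WT replicate 2 it was called. Fbn2 had values of 44, 31, 32 and 40 in KO islets, against 12, 28, 20 and 24 in WT islets, with no overlap and an adjusted p of 0.121. Col4a3bp, the ceramide transfer protein, had values of 2967, 2720, 2795 and 2904 in KO islets, against 3802, 3334, 3280 and 3194 in WT islets (log2 difference -0.25 ± 0.08, adjusted p = 0.0425). That call was lost on leaving out any 1 library other than WT replicate 4 (highest adjusted p = 0.103), and also with totals that leave out hormone and mitochondrially encoded genes and with quantile normalization.

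**Figure D3:**
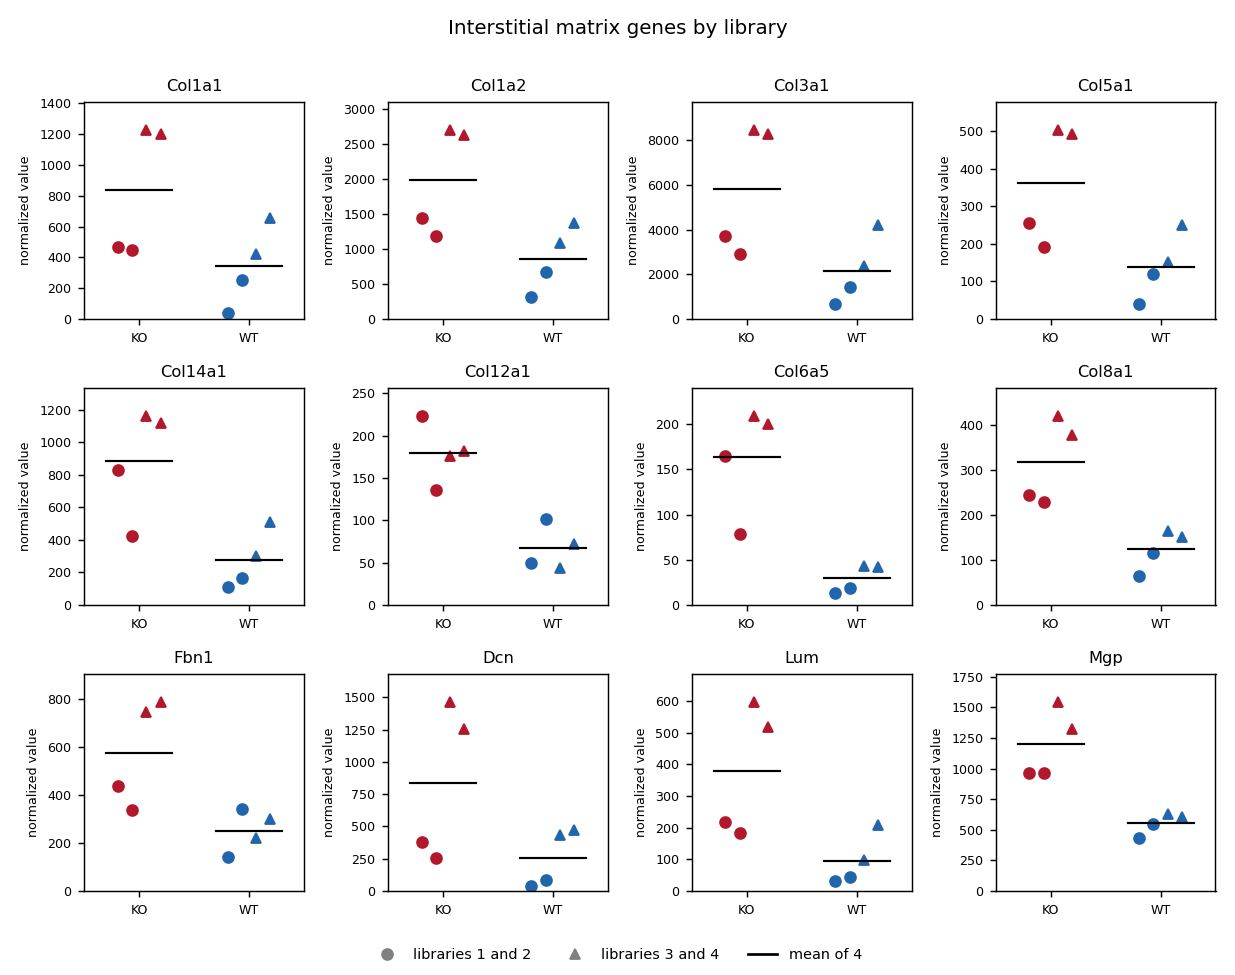
Normalized values (y axis, from 0) of 12 interstitial matrix genes in each KO and WT library, with circles for libraries 1 and 2, triangles for libraries 3 and 4 and lines for means of 4. In Col1a1, Col1a2, Col3a1, Col5a1, Dcn and Lum the triangles lie above the circles under both labels, and for the same symbol KO lies above WT; Col12a1, Col6a5, Col8a1 and Mgp are separate between the groups.

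Libraries 3 and 4 were set against libraries 1 and 2 with genotype in the model after the split by number had been seen in these genes, so the values describe that split and are no independent test of it. A total of 19 of the 55 genes were higher in libraries 3 and 4 (9.38% of all genes were), and 0 were lower by limma-trend at the adjusted threshold (6.06% of all genes). Fibrillar collagens made up 6 of the 19, whereas 0 of 10 laminin genes were among them. The largest of these differences was that of Dcn, 2.57 ± 0.27 (log2, SE), followed by Col1a1 at 1.88 ± 0.47 and Col5a3 at 1.84 ± 0.20. Within libraries 1 and 2 alone, KO against WT gave 18 genes higher (12.2% of all genes) and 1 lower, Col6a3 (10.8%). Within libraries 3 and 4 alone it gave 24 higher (11.4%) and 1 lower, Col11a2 (11.4%). A total of 12 genes were higher in both sets (6.61% of all genes were), and 42 had a positive difference in both (36.1% of all genes). In the authors' deposited table, with their FDR held under 0.05, 32 of the 55 genes were higher (16.2% of all genes) and 2 lower, Col4a3bp and Col6a3 (13.1%).

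The basement membrane genes that rose had their larger differences in libraries 1 and 2, apart from Lama2 and Lama3. Col4a5 differed by 2.06 in libraries 1 and 2 and by 0.79 in libraries 3 and 4, Lama5 by 1.85 and 0.54, and Col18a1 by 2.28 and 0.89 (log2, KO minus WT). For Lama2 the order was turned, with 0.78 in libraries 1 and 2 and 1.76 in libraries 3 and 4. The difference between the sets was itself tested as an interaction: 0 of the 55 genes passed an adjusted p of 0.05 by limma (0.0991% of all genes did), and 12 had an unadjusted p under 0.05, against 18.8% of all genes. The smallest adjusted p among the 55 was 0.0745, for Col6a3.

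**Figure D4:**
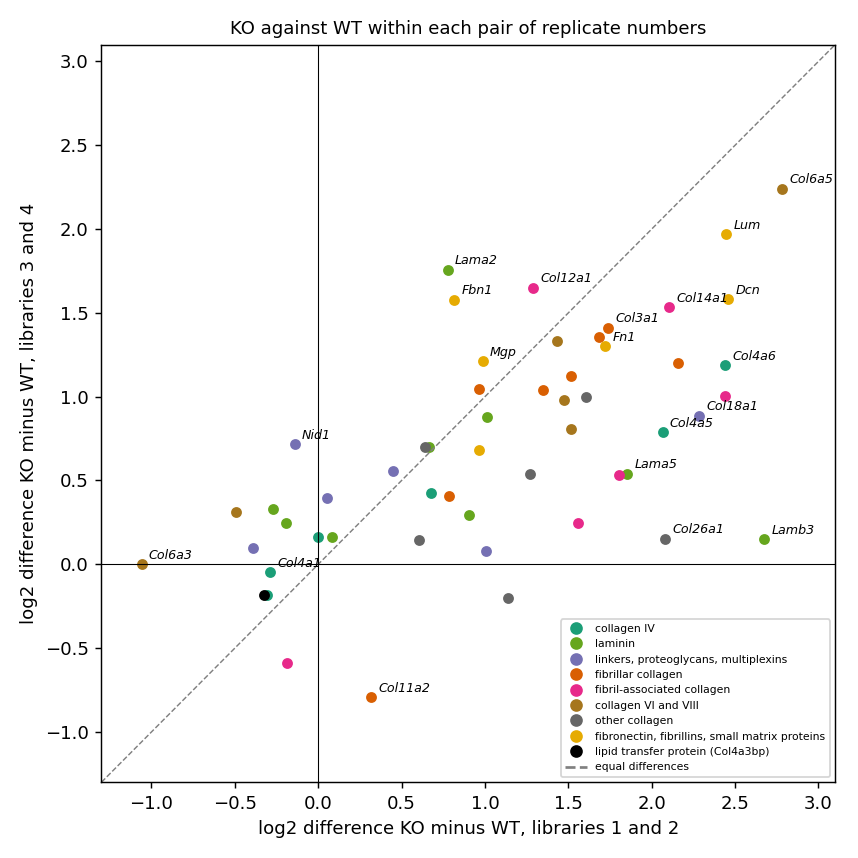
Log2 difference of KO minus WT in libraries 1 and 2 (x axis) and in libraries 3 and 4 (y axis) for 54 of the 55 genes, coloured by role, with the line of equal differences dashed. A total of 42 genes lie right of and above 0 on both axes; Col6a3 and Col11a2 lie low in 1 set only, and Lamb3, Col26a1 and Lama5 lie far below the line.

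Other genes of matrix biology were counted from 5 lists in the same fit. Of all genes tested, that fit called 11.1% higher and 9.81% lower (14.2% and 11.7% under the block), the shares to set beside each count. Of the collagen processing genes, 8 of 26 measured rose and 3 fell. Lox, which crosslinks collagen and elastin, had values of 56, 63, 76 and 103 in KO islets, against 6, 16, 15 and 21 in WT islets, and rose by 2.36 ± 0.41 (log2, SE, adjusted p = 0.00425). Its relative Loxl1 rose by 1.69 ± 0.38 (adjusted p = 0.0152), and Loxl2, the crosslinking enzyme known to act on collagen IV, had values of 646, 819, 942 and 848 in KO islets, against 1999, 2158, 1810 and 1757 in WT islets. Loxl2 fell by 1.25 on the log2 scale (SE 0.12, adjusted p = 0.000342). P3h2, a prolyl hydroxylase that acts on collagen IV, averaged 240 ± 41.4 in KO islets and 70.8 ± 20.7 in WT islets (SD, n = 4 each), and rose by 1.78 (adjusted p = 0.0012). Plod2, which hydroxylates lysines at the chain ends, rose by 1.46 (adjusted p = 0.00635). The other 2 that fell were Mia3, which loads procollagen at the exit from the endoplasmic reticulum (log2 difference -0.51, adjusted p = 0.00693), and Bmp1, which trims procollagen ends (-0.27, adjusted p = 0.0353). The Bmp1 call was lost without any 1 KO library or WT replicate 2 or 3 (highest adjusted p = 0.0999).

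Of 25 matrix receptors measured, 7 rose and 1 fell. Cd44, a receptor of hyaluronan, had values of 6343, 6292, 5511 and 5762 in KO islets, against 3391, 2842, 2673 and 2790 in WT islets, and rose by 1.03 ± 0.09 (log2, SE, adjusted p = 0.000197). Ddr2, a receptor of fibrillar collagen, rose by 1.03 (adjusted p = 0.0193), a call lost without KO replicate 3 or 4 (highest adjusted p = 0.0572). Itgb4 and Itgb6 encode epithelial integrin chains, for laminin and for fibronectin and latent TGF-beta. Itgb4 rose by 1.33 (adjusted p = 0.0498; 0.0836 under the block) and Itgb6 by 1.31 (adjusted p = 0.0436); the call was lost for Itgb4 without any 1 library other than WT replicate 4 (highest 0.109) and for Itgb6 without KO replicate 1, 2 or 3 or WT replicate 1, 3 or 4 (highest 0.1). Itga2, part of a collagen receptor, fell by 0.97 on the log2 scale (adjusted p = 0.0432; 0.0688 under the block), a call lost without any 1 KO library or WT replicate 1 or 2 (highest 0.106).

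Of 16 matrix proteases and inhibitors measured, 4 rose and 0 fell by limma; 8 rose under the block. Timp2, an inhibitor of matrix metalloproteinases, had values of 1800, 1160, 1390 and 1349 in KO islets, against 548, 576, 784 and 678 in WT islets, and rose by 1.14 ± 0.16 (log2, SE, adjusted p = 0.00155). Mmp14, a membrane-bound collagenase, rose by 1.09 (adjusted p = 0.0131), and Timp1 rose by 0.86 (adjusted p = 0.0139). Adamts5, which cleaves large proteoglycans, rose by 1.67 (adjusted p = 0.0446), a call lost without any 1 KO library or WT replicate 1 or 2 (highest 0.12). Of 38 other matrix genes, 12 rose and 1 fell. Smoc1, a basement membrane glycoprotein that binds calcium, had values of 828, 817, 693 and 983 in KO islets, against 124, 96, 90 and 128 in WT islets, and rose by 2.92 ± 0.16 (log2, SE, adjusted p = 3.27e-05). Efemp1, a fibulin of elastic tissue, had values of 419, 49, 35 and 26 in KO islets, against 8, 6, 4 and 10 in WT islets, and rose by 3.13 ± 0.81 (adjusted p = 0.0256), a call lost without WT replicate 1, 2 or 3 (highest 0.0604). Fbln2, which binds basement membrane and elastic fibres, had values of 2220, 341, 613 and 598 in KO islets, against 45, 143, 226 and 282 in WT islets (log2 difference 2.34, adjusted p = 0.0374; 0.0568 under the block). The Fbln2 call was lost without KO replicate 1, 3 or 4 or WT replicate 1 or 2 (highest 0.0786). Nov, a secreted matricellular protein, rose by 2.03 (adjusted p = 0.00768), and Emilin1, an elastic fibre glycoprotein, fell by 1.23 on the log2 scale (adjusted p = 0.00669).

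TGF-beta is a main inducer of fibrillar collagen genes in fibroblasts. Of 22 genes of its signalling, 5 rose and 1 fell. Ltbp1, which holds latent TGF-beta in the matrix, had values of 648, 548, 567 and 587 in KO islets, against 181, 240, 291 and 319 in WT islets, and rose by 1.21 ± 0.17 (log2, SE, adjusted p = 0.00165). The ligand genes Tgfb2 and Tgfb3 rose by 1.39 (adjusted p = 0.0193) and 1.92 (adjusted p = 0.036; 0.0525 under the block), while the receptor gene Tgfbr2 rose by 0.69 (adjusted p = 0.0425) and Tgfbr1 fell by 0.31 on the log2 scale (adjusted p = 0.0365). Each of these 4 calls depended on single libraries: Tgfb2 lost its call without WT replicate 2 (0.0514), Tgfb3 without KO replicate 1 or 2 or WT replicate 1, 2 or 3 (highest 0.0884), Tgfbr2 without KO replicate 1, 3 or 4 or WT replicate 1, 2 or 3 (highest 0.109) and Tgfbr1 without any 1 KO library or WT replicate 1 or 2 (highest 0.0934).

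Markers of the cell types that could carry matrix transcripts were read in the same libraries, as calls and summed values. Their calls stand beside 11.1% of all genes higher and 9.81% lower (14.2% and 11.7% under the block). Within libraries 1 and 2 alone these shares were 12.2% and 10.8%, and within libraries 3 and 4 alone 11.4% and 11.4%. Endothelial markers were called higher in 0 of 19 by limma (2 under the block) and lower in 1, Esm1. They summed to 18876 to 29265 in KO islets and 18724 to 23094 in WT islets, and 10 of 19 were higher in libraries 3 and 4. For KO against WT, 1 rose and 2 fell within libraries 1 and 2 alone. Within libraries 3 and 4 alone 7 rose and 1 fell. Stellate cell and pericyte markers rose in 2 of 17, Gucy1a3 and Gucy1b3 (8 under the block). They summed to 13411 to 18861 in KO islets and 9518 to 17033 in WT islets. Every KO sum lay above every WT sum but that of WT replicate 2 (17033), the other WT sums being 9518 to 11536. Rgs5 was the largest part of these sums, averaging 9498 in KO islets and 6904 in WT islets. Acta2, Tagln, Myl9 and Des were each highest in replicate 2 under both labels. Acta2 had 3279 in KO replicate 2 (235 to 531 in the other KO libraries) and 2001 in WT replicate 2 (107 to 274 in the others). Within libraries 1 and 2 alone 4 of the 17 rose, and within libraries 3 and 4 alone 12 rose. Ductal markers rose in 4 of 12 (6 under the block) and summed to 26140 to 50110 in KO islets and 16119 to 29490 in WT islets. Their highest sum was that of KO replicate 1, where Spp1 alone had 19589. Spp1 had 6547 to 10277 in the other KO libraries and 951 to 1500 in WT islets. KO replicate 1 also had the highest value of all 8 libraries for Lamb3, Agrn, Fn1, Lama3, Lama5, Col4a5, Col4a6 and Col18a1, among others. Schwann cell markers rose in 2 of 8, Erbb3 and Gfra3. They summed to 956 to 1799 in KO islets and 598 to 1017 in WT islets. With genotype in the model, 5 of 8 Schwann cell markers were higher in libraries 3 and 4, against 9.38% of all genes. Beside the endothelial markers, so were 6 of 17 stellate cell and pericyte, 6 of 11 macrophage, 1 of 12 ductal and 0 of 14 acinar markers. Acinar markers rose in 1 of 14 and fell in 1 (4 rose under the block), and summed to 163533 to 496028 in KO islets and 24933 to 326839 in WT islets, and macrophage markers rose in 1 of 11 and summed to 3244 to 4113 in KO islets and 2110 to 4244 in WT islets. Of endocrine markers, 7 of 10 beta cell genes fell, while 6 of 8 alpha cell genes and 6 of 6 delta and PP cell genes rose. Beta cell sums were 2547831 to 3495489 in KO islets and 5369690 to 6009868 in WT islets, alpha cell sums 1928172 to 2631264 in KO islets and 415804 to 1055243 in WT islets, and delta and PP cell sums 277530 to 391762 in KO islets and 103878 to 170702 in WT islets. Within libraries 1 and 2 alone, ductal markers rose in 7 of 12, Schwann cell markers in 1 of 8 and acinar markers in 10 of 14. Within libraries 3 and 4 alone they rose in 4 of 12, 6 of 8 and 1 of 14. Macrophage markers rose in 1 of 11 within each set. Markers without a row in the table were not analysed here. The part of these cell types in the matrix differences was not tested.

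**Figure D5:**
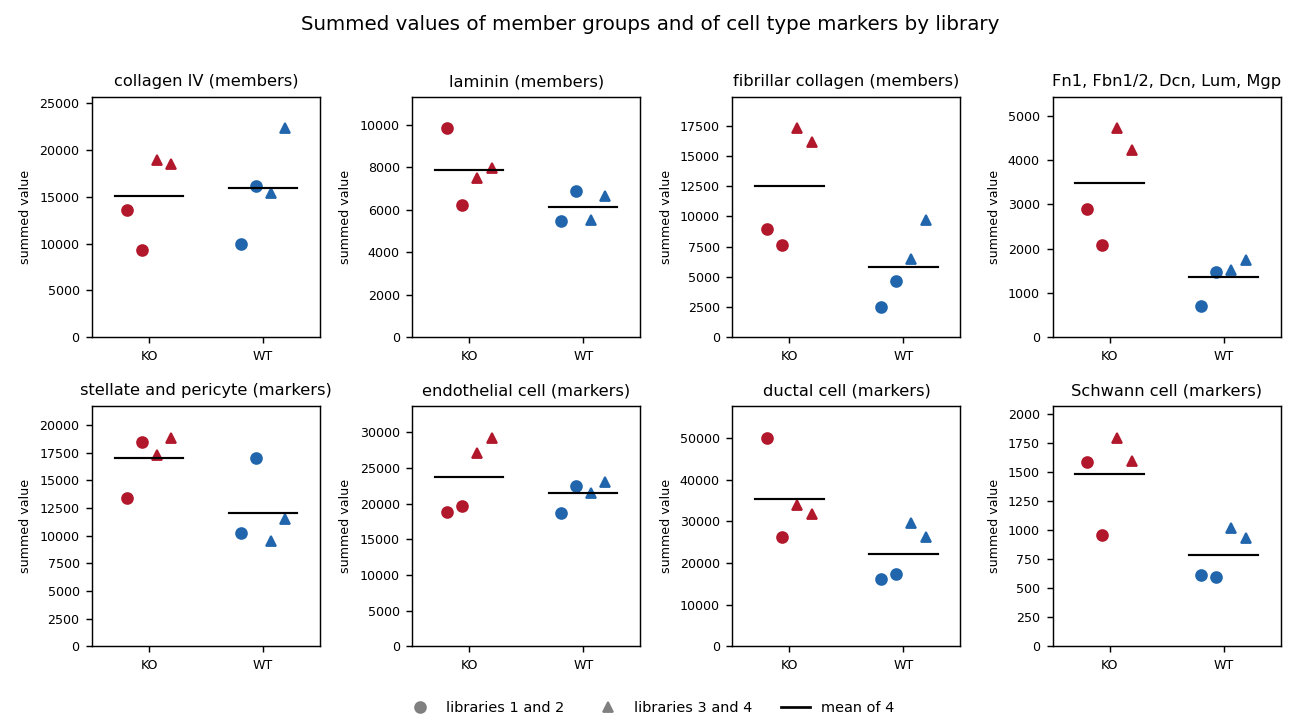
Summed normalized values (y axes, from 0) of 4 groups of matrix genes (upper row) and of the markers of 4 cell types (lower row) in each KO and WT library, with circles for libraries 1 and 2, triangles for libraries 3 and 4 and lines for means of 4. Fibrillar collagen sums are 7654 to 17299 in KO islets and 2463 to 9742 in WT islets, collagen IV sums overlap (9357 to 18882 in KO islets and 9994 to 22329 in WT islets), and KO replicate 1 is highest for laminins and ductal markers.

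Summed by role, the collagen IV genes came to 13640, 9357, 18882 and 18541 in KO islets, against 9994, 16152, 15363 and 22329 in WT islets. The fibrillar collagen genes came to 8951, 7654, 17299 and 16136 in KO islets, against 2463, 4642, 6513 and 9742 in WT islets. The fibronectin, fibrillin and small matrix protein genes came to 2901, 2070, 4714 and 4233 in KO islets, against 705, 1475, 1514 and 1751 in WT islets, with every KO library above every WT library. All 55 genes made up 0.11% to 0.202% of the total value in KO islets and 0.0839% to 0.157% in WT islets.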

How the data were processed

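Islet RNA was sequenced in 4 KO and 4 WT libraries, each from its own mouse per the series' design text. The authors used STAR 2.5.3a and RSEM 1.2.31 beside bcl2fastq 2.20, with edgeR 3.16.15 and build GRCm38.p5, per the submitters' processing notes, which give no role, order or settings. The table deposited by the authors holds 8 columns of normalized counts rounded to whole numbers, treated as a score in no fixed unit. This reading rests on the values: median-of-ratios factors lay between 0.994 and 1.01 while totals ran from 32024139 to 34858983. The sequencing depth is unknown, so precision rests on the spread between libraries. The same deposited table gives the authors' log2 fold change, log2 CPM, likelihood ratio score, p-value and adjusted p-value per gene; only the log2 fold change and the adjusted p-value were used. The adjusted p-values imply 14613 genes, more than the 14126 in the table.

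Here, log2(value + 1) of the 14121 genes that reached 1 in 4 or more libraries was fitted with limma-trend (limma 3.58.1, R 4.3.3). Benjamini-Hochberg adjustment ran over all of them. The fit was tested on simulated independent libraries that lack the split by number, so that test does not bear on the split. Differences on this scale understate those of low genes. The members, gene lists and tests were chosen with earlier results of these data known. Named were the called members, 21 fixed members and, per pathway list, the 4 called genes with the largest difference; other members, and the other list and marker genes named, were chosen after their values were seen, and 1 member, kept in the counts over members, is not reported here. Of 259 list entries, 232 were measured, older symbols included. KO and WT libraries of the same number deviated together from their group means, with r of 0.327, 0.583, 0.664 and 0.381. These r run over 13081 genes with a mean value above 50 (across genes, which are not independent). Each was above 0.1, so a fit with the number as a block stands beside the fit without it. Across numbers within libraries 1 and 2, r was 0.433 (KO 1 with WT 2) and 0.454 (KO 2 with WT 1). Within libraries 3 and 4 it was 0.516 (KO 3 with WT 4) and 0.466 (KO 4 with WT 3). The same-number values thus cannot tell pairs from the split of libraries 1 and 2 from 3 and 4. That equal numbers are pairs is an assumption of the block. Other pseudocounts, filters and scalings, subsets of libraries and the authors' calls were tried as alternatives. Positions and exon lengths are from GENCODE M21, in which all 55 genes were found. Promoter windows are RefSeq's, from GRCm38.p6.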

Additional observations from a re-analysis of the deposited data

Results flagged for a closer look

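In each of 108 sets of 4 values (54 genes in KO and in WT islets), the highest or lowest library was flagged where its gap to the nearest other exceeded the 95% critical value of Dixon's test; chance flags about 1 in 20 such sets, and 6 were flagged. In KO replicate 1, Lamb3 had a value of 266 (next highest KO library 47), Agrn 1950 (next 707) and Fn1 861 (next 335). In KO replicate 2, Col25a1 had 204 (next 83), and in KO replicate 3, Col20a1 had 299 (next 200). In WT replicate 2, Col4a6 had 16 (next 10). KO replicate 1 holds 3 of the 6 flags and also the highest summed ductal markers, 50110, against 26140 to 33935 in the other KO libraries. Spp1 alone made up 19589 of that sum, against 6547 to 10277 in the other KO libraries. The part of ductal cells in these values was not tested.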

How the results depend on the processing

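The count of 15 genes higher in KO islets was 14 to 17 with a pseudocount of 0.1 or 5, no filter, a mean value of at least 10, totals without hormone and mitochondrially encoded genes, and quantile normalization. It was 18 in libraries 1 and 2 alone, 24 in libraries 3 and 4 alone, 28 with these sets as a term and 32 by the authors' FDR, and 7 to 21 with 1 library left out. The replicate block, which assumes that libraries of the same number are pairs, gave 23 and changed 10 of the 55 calls. The single gene lower in KO islets, Col4a3bp, became 0 genes by limma with the totals without hormone and mitochondrially encoded genes and with quantile normalization (55 of 55 genes were tested in each), 2 by the authors' FDR, and 0 to 1 with 1 library left out. Over all genes, the sets as a term gave 2400 higher and 2102 lower; leaving out 1 library gave 1121 to 1684 higher and 863 to 1597 lower, and the totals without hormone and mitochondrially encoded genes 1746 higher and 1017 lower, against 1562 and 1385.

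An exact permutation within pairs of the same number, added after seeing the data, gave p = 0.125 to 0.375 for the 9 chain ratios. None of the 16 calls changed sign in these fits. Differences that were not called turned sign in libraries 1 and 2 alone for Lama4 (-0.20), Lamb1 (-0.27), Nid1 (-0.14) and Col11a2 (0.32). They turned in libraries 3 and 4 alone for Nid2 (0.10), Col6a3 (0.0013), Col6a6 (0.31) and Col7a1 (-0.20). Quantile normalization turned Col7a1 (-0.0139). With 1 library left out, the ranges crossed 0 for Col4a1 (-0.37 to 0.051), Col4a2 (-0.14 to 0.29), Lama4 (-0.10 to 0.20), Lamb1 (-0.061 to 0.20) and Col6a6 (-0.22 to 0.056). The cause was not tested. Depth is unknown, so it sets no limit that can be stated.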
